A study of Rattus norvegicus with 20 samples.

Results

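Transcripts of 6 genes that make, sense and break down prostaglandins were followed in cultured rat epithelial cells after and before their transplantation into skin. The genes were Pla2g4a, Ptgs1, Ptgs2, Ptges, Ptger4 and Hpgd. They were chosen by name for their place in the pathway, with earlier results of these data known. They make up 6 of the 14506 gene symbols measured. Each was read by exactly 1 probe set that carries no other symbol.

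The cells came from oral mucosa, vagina, oesophagus, foot pad and trachea, which are epithelia without hair, of Sprague-Dawley rats at postnatal day 200. All rats carried the CZ-004 act-EGFP transgene, which marks every cell with green fluorescence, so the sort on EGFP separates rat from mouse cells but not epithelium from other rat cells. After-transplantation groups hold cells that had been injected into newborn mouse skin, carried on athymic nude mice, recovered from the graft and cultured again. Before-transplantation groups hold cells of the same tissues, cultured before transplantation. At both stages the feeder layer was irradiated mouse 3T3-J2 fibroblasts, in medium with serum, cholera toxin, triiodothyronine, insulin, hydrocortisone and EGF. The comparison asks what such cells express once they have been exposed to a skin environment.

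Prostaglandins are short-range lipid signals. Cytosolic phospholipase A2 (Pla2g4a) frees arachidonic acid from membranes, the cyclooxygenases Ptgs1 (COX-1, often present at a steady level) and Ptgs2 (COX-2, often induced) turn it into prostaglandin H2, and Ptges, the microsomal prostaglandin E synthase, converts that to prostaglandin E2. Prostaglandin E2 acts through receptors such as Ptger4 (EP4, which raises cAMP) and is inactivated by Hpgd, the 15-hydroxyprostaglandin dehydrogenase. In skin and other stratified epithelia the pathway is known for its part in inflammation, wound repair and the growth of keratinocytes.

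Expression was measured on 20 Affymetrix Rat Gene ST arrays, 2 for each of the 10 groups, on a log2 scale (values from RMA, robust multi-array averaging, 29215 probe sets, where a step of 1 means 2-fold). Across probe sets the Pearson's r of duplicates was 0.991 to 0.996, and array medians lay between 5.31 and 5.55. The number of arrays limits the precision, and p-values reflect no more than how far duplicate cultures vary, since nothing ties a duplicate to another animal or graft. Here rose and fell are used of genes with an adjusted p below 0.05 in limma and a fold above 2. The deposited values carry no detection call. As a guide, 40% of probe sets had a mean below 4.77. The 7 measured genes of a basal keratinocyte list averaged 10.7 to 11.0 on every array after and 10.8 to 11.0 before transplantation. Krt14 was above 13 in all groups, and Epcam, an adhesion gene of that list, rose in foot pad. Before transplantation Krt4, a keratin of moist squamous mucosa, was at 11.96 in oral mucosa and 10.83 in oesophagus and at 5.02 in foot pad. In oral mucosa before, the mean of 5 airway markers was 6.41 to 6.54, overlapping trachea after. At each stage that mean was highest in trachea, at 6.44 to 6.55 after and 6.96 to 7.13 before. That mean rested on the keratins Krt8 and Krt18: Scgb1a1 of secretory airway cells was at 3.40 in trachea after and 4.12 before, below the 40% level, and Foxj1 of ciliated cells was at 6.19 after and 6.04 before, within its range in the other tissues.

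The DNA just upstream of 3 of these genes is shown because Ptgs1 and Ptges had the most falls and Ptgs2 is the other cyclooxygenase. Each run holds the 250 bases before the RefSeq start of the gene in the GRCr8 assembly, written 5′ to 3′ on the gene's strand. The stretch of Ptgs1 lies at chr3:39981169-39981418 on the plus strand, Ptgs2 at chr13:64713813-64714062 on the plus strand and Ptges at chr3:34586988-34587237 on the minus strand. Capitals mark matches to the motifs searched.
Ptgs1: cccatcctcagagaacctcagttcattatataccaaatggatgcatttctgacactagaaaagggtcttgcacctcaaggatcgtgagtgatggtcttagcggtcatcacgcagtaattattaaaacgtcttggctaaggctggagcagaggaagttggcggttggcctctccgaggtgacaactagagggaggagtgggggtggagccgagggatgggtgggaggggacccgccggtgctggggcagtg
Ptgs2: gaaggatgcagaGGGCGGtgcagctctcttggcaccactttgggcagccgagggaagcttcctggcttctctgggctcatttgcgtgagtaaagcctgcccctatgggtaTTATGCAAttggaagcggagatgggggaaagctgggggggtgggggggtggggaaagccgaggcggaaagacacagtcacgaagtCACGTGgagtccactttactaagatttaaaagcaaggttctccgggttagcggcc
Ptges: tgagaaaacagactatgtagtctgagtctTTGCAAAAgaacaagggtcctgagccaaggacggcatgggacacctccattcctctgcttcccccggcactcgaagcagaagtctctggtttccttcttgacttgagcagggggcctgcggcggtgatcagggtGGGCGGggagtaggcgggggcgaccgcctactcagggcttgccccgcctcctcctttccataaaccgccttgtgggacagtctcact

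The motifs were searched on both strands of the 250 bases in 5 of the genes and in 33465 rat promoters. Ptger4 is left out because its tabulated start lies inside the annotated span of the gene. They were the TATA box as the letters TATAAA (in 12.9% of all promoters), TGACGTCA (full cAMP response element, 1.59%), TGACG (the short form of that element, contained in it, 18.2%), CACGTG (E-box, 5.59%), TGANTCA (AP-1 element, 6.34%), GGGCGG (GC box, 30.5%) and TTGCNNAA (C/EBP-type element, 9.22%). Ptgs2 and Ptges each held a GC box and a C/EBP-type element, and Ptgs2 also an E-box at positions −55 to −50 from the start. Ptgs1 held none of the 7 motifs. Pla2g4a held a TATA box in reverse and Hpgd the short cAMP response element and a GC box. The GC content of the printed stretches was 54.4% in Ptgs1, 57.2% in Ptgs2 and 58.8% in Ptges, against a median of 51.2% over all promoters. On the same map Pla2g4a and Ptgs2 are neighbours on chromosome 13 with 0 protein-coding genes between them, and Ptgs1 and Ptges share chromosome 3 with 89 protein-coding genes between them. These matches describe letters and were not tied to the array values.

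Foot pad cells changed most of the 6 genes. After transplantation the foot pad cells had less Ptgs1, Ptgs2, Ptges and Pla2g4a and more Ptger4, so 4 genes fell and 1 rose, while 2.64% of all probe sets fell and 4.28% rose in that tissue. In oral mucosa 2 genes fell (Ptgs1 and Ptges) and 0 rose, beside 2.15% of all probe sets lower and 1.50% higher. In vagina the same 2 genes fell and 0 rose, beside 1.68% lower and 0.534% higher. In oesophagus 0 of the 6 passed in either direction, beside 0.558% lower and 0.517% higher. Trachea had 1 gene that rose (Hpgd) and 0 that fell, beside 0.496% higher and 0.883% lower. The median change of the 6 genes was −1.11 in foot pad, −0.62 in oral mucosa, −0.39 in vagina, −0.13 in oesophagus and 0.19 in trachea, where the median of all probe sets was −0.03, 0.05, 0.06, −0.01 and 0.01 in the same order. In these bulk samples fewer cells of a type and less RNA per cell cannot be told apart.

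**Figure D1:**
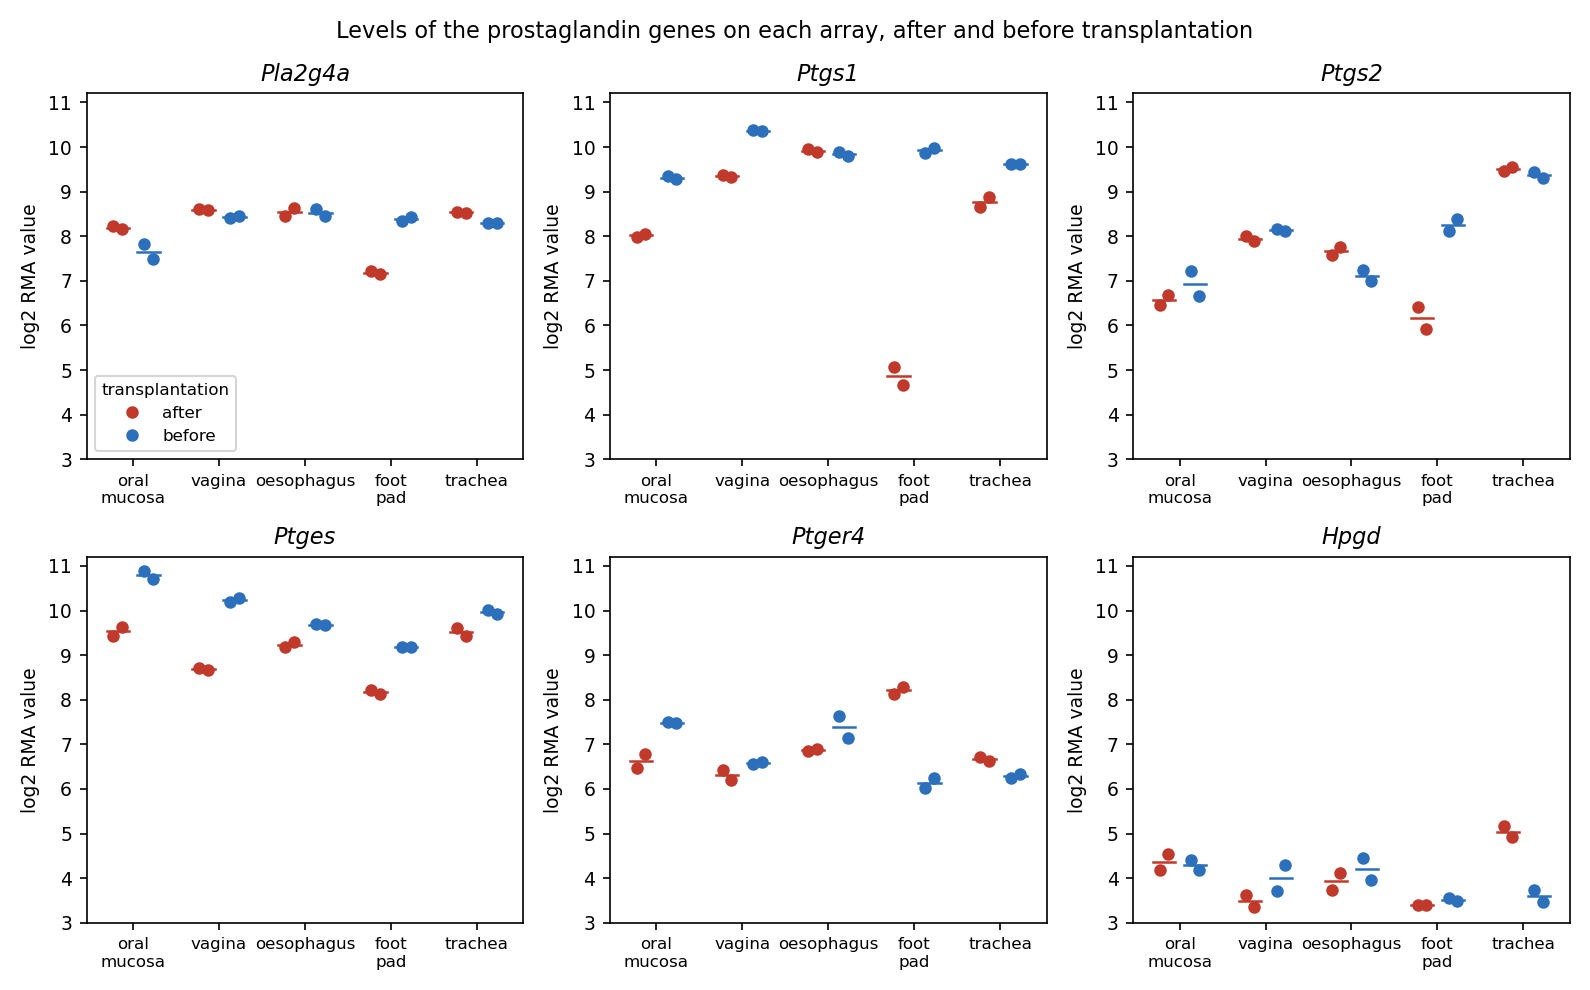
The log2 RMA values of the 6 genes (y axis, each gene in its own panel) on each of the 20 arrays, by tissue (x axis), with cells after transplantation in red at the left and cells before it in blue at the right; a dot is 1 array and a short line the mean of 2. Ptgs1 after transplantation in foot pad cells (5.07 and 4.67) lies far below every other Ptgs1 value, and the red Ptges dots lie below the blue ones in all 5 tissues.

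Arachidonate release came first in the pathway. Pla2g4a, the phospholipase that prefers arachidonate, read 7.22 and 7.14 in foot pad cells after transplantation, against 8.34 and 8.43 before. The arrays after were its 2 lowest of all 20, and it fell by 1.21 ± 0.10 (SE), or 2.31-fold (limma, adjusted p 6.67e-07). In oral mucosa Pla2g4a read 8.22 and 8.17 after and 7.82 and 7.48 before, a difference of 0.54 ± 0.10 that had an adjusted p of 0.00179 but a fold of 1.46, under the threshold. In vagina, oesophagus and trachea Pla2g4a lay between 8.46 and 8.62 after and 8.29 and 8.61 before, with differences of 0.16 in vagina, 0.01 in oesophagus and 0.25 in trachea (adjusted p 0.303, 0.969 and 0.148).

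Of the cyclooxygenases, Ptgs1 changed over the widest range. In foot pad cells it read 5.07 and 4.67 after transplantation and 9.87 and 9.98 before. Its change of −5.06 ± 0.11 is a 33.4-fold fall (adjusted p 6.05e-12) and was the second lowest change of the 29215 probe sets in that tissue. The level after, 4.87 ± 0.28 (SD, n = 2), is close to the 4.77 below which 40% of probe sets lie.

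Ptgs1 also fell in oral mucosa, with 7.98 and 8.06 after transplantation and 9.35 and 9.29 before (change −1.30 ± 0.11, 2.46-fold, adjusted p 1.58e-06). In vagina it read 9.38 and 9.33 after and 10.37 and 10.35 before, a change of −1.01 ± 0.11 that passed the fold threshold by little (2.01-fold, adjusted p 3.07e-05). Leaving out 1 array of the vagina, either replicate 1 before or replicate 2 after, put it just under that threshold (−0.99 and −0.98). In trachea Ptgs1 read 8.65 and 8.89 after and 9.63 and 9.62 before, a difference of −0.85 ± 0.11 with an adjusted p of 0.000227 and a fold of 1.81, under the threshold. Oesophagus cells gave 9.95 and 9.89 after and 9.88 and 9.80 before, which differ by 0.08 with a 95% confidence interval of −0.17 to 0.33 (adjusted p 0.779). The after arrays lay below the before arrays in 4 tissues and, by this small margin, above them in oesophagus.

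Ptgs2, the inducible cyclooxygenase, had its clear change in foot pad. Cells after transplantation read 6.41 and 5.92 there, against 8.12 and 8.38 before, a change of −2.08 ± 0.18 or a 4.24-fold fall (adjusted p 7.95e-07). Trachea cells stood apart by level. They read 9.46 and 9.55 after and 9.44 and 9.31 before, above every array of the other 4 tissues at both stages, and the change was 0.13 ± 0.18 (95% confidence interval −0.27 to 0.52, adjusted p 0.741). In oesophagus Ptgs2 read 7.57 and 7.75 after and 7.24 and 6.999 before, a difference of 0.54 ± 0.18 that did not pass (adjusted p 0.0726). Vagina gave 7.997 and 7.89 after and 8.16 and 8.11 before, and oral mucosa 6.46 and 6.67 after and 7.23 and 6.65 before. The oral mucosa arrays of both stages overlapped, and neither difference passed (−0.19, adjusted p 0.516, and −0.37, adjusted p 0.175).

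**Figure D2:**
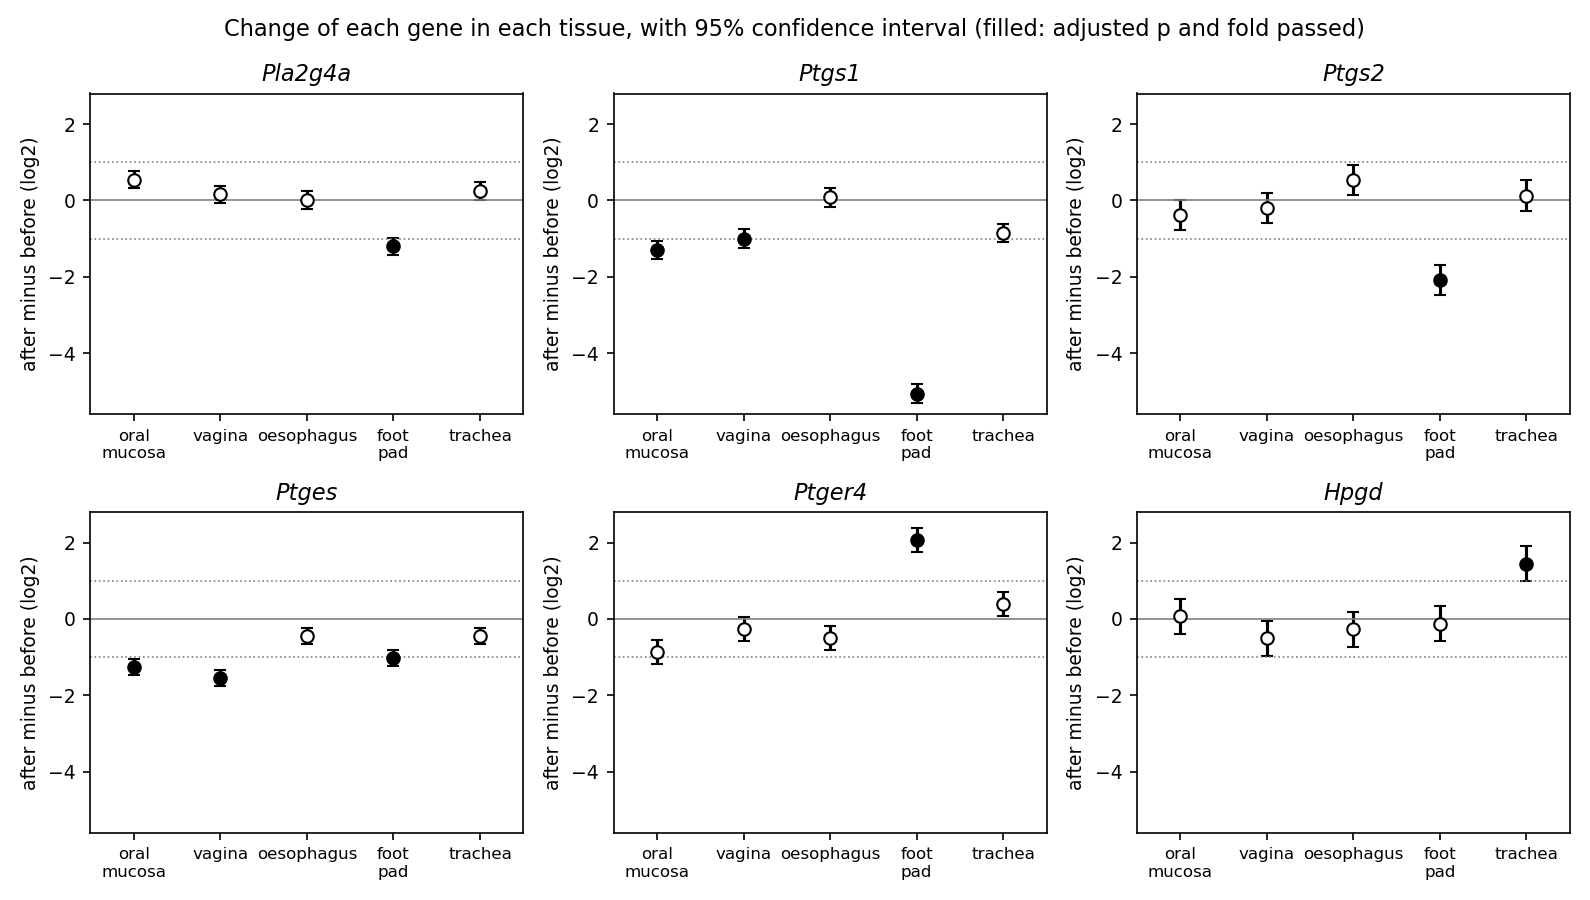
The change of each gene, after minus before transplantation in log2 units (y axis), by tissue (x axis), from limma's fit on 20 arrays; bars are 95% confidence intervals, filled dots passed both the adjusted p of 0.05 and the 2-fold threshold (dotted lines at −1 and 1), and open dots did not. Foot pad holds 5 filled dots, oral mucosa 2, vagina 2, trachea 1 and oesophagus 0. Those of foot pad include Ptgs1 at −5.06 and Ptger4 at 2.07, and all 5 intervals of Ptges lie below 0.

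Ptges, the terminal synthase of prostaglandin E2, was lower after transplantation in every tissue. In vagina it read 8.71 and 8.66 after and 10.19 and 10.28 before, its largest change (−1.55 ± 0.10, 2.93-fold, adjusted p 1.05e-07). In oral mucosa it read 9.42 and 9.64 after and 10.89 and 10.70 before (change −1.26 ± 0.10, 2.40-fold, adjusted p 4.19e-07). Foot pad cells gave 8.21 and 8.12 after and 9.18 and 9.18 before, a change of −1.01 ± 0.10 that passed the fold threshold by little (2.02-fold, adjusted p 1.79e-06). It dropped under that threshold when foot pad replicate 2 after was left out (−0.97) or the arrays were centred on their medians (−0.99).

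The other 2 tissues had smaller differences in Ptges. Oesophagus read 9.19 and 9.28 after and 9.69 and 9.67 before, lower by 0.45 ± 0.10 with an adjusted p of 0.00708 and a fold of 1.36. Trachea read 9.61 and 9.44 after and 10.02 and 9.93 before, also lower by 0.45 ± 0.10 (adjusted p 0.00654, fold 1.36). Both stayed under the fold threshold. No array after overlapped an array before in any of the 5 tissues, but with 2 arrays a group this says little. Ptgs1 in oesophagus did not overlap either (limma, adjusted p 0.779), and the share of all probe sets without overlap was not counted. By adjusted p alone Ptges was lower in all 5 tissues, which held for 54 of 29215 probe sets (0.185%). The study had already named Ptges as higher in these cells before transplantation than in whisker follicle cells. This share is therefore a description and not a test. Taken over tissues as replicates, its mean change was −0.94 ± 0.18 (p 0.00146, adjusted p 0.302, by limma on 10 group means blocked by tissue). In that test 0% of probe sets passed after adjustment, that is 0 of 29215, and 3273 had an unadjusted p under 0.05.

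Ptger4, the EP4 receptor, was the member that rose in foot pad cells. It read 8.12 and 8.30 there after transplantation, against 6.03 and 6.25 before, a change of 2.07 ± 0.15 or 4.20-fold (adjusted p 1.17e-07). Foot pad cells thus held the lowest mean of the 10 groups before and the highest after. In oral mucosa Ptger4 read 6.46 and 6.78 after and 7.49 and 7.48 before, lower by 0.87 ± 0.15 with an adjusted p of 0.000759 and a fold of 1.82, under the threshold. It passed when the arrays were centred on their medians (−1.004) or oral mucosa replicate 2 after was left out (−1.02). In oesophagus it read 6.86 and 6.91 after and 7.63 and 7.13 before, a difference of −0.50 ± 0.15 with an adjusted p of 0.0406 and a fold of 1.41. Vagina (6.21 and 6.43 after, 6.61 and 6.55 before) and trachea (6.73 and 6.63 after, 6.25 and 6.33 before) differed by −0.26 and 0.39 and did not pass (adjusted p 0.247 and 0.106).

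Hpgd, which inactivates prostaglandin E2, was read at low values throughout. Its mean over the 20 arrays was 3.98, above the means of only 27.0% of probe sets, and whether most of its values lie above background is not known. It rose in trachea, with 5.17 and 4.92 after transplantation and 3.73 and 3.46 before (change 1.45 ± 0.21, 2.72-fold, adjusted p 0.000451). The trachea arrays after were its 2 highest of all 20 and the only ones above the 40% level of 4.77. In the other 4 tissues Hpgd lay between 3.36 and 4.54 after and 3.48 and 4.45 before, and its differences of −0.51 in vagina, −0.27 in oesophagus, −0.13 in foot pad and 0.07 in oral mucosa did not pass (adjusted p 0.111, 0.511, 0.714 and 0.861). In oral mucosa the sign of that small difference turned when the arrays were centred on their medians (−0.07).

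Whether the genes changed unequally among tissues was tested on the changes themselves. All 6 passed the F test over the differences of change between tissues, which 37.0% of all probe sets also did. Without foot pad 5 of the 6 passed, but the share of all probe sets was not counted in that fit. The adjusted p was 5.09e-10 for Ptgs1, 6.13e-07 for Ptger4, 3.60e-06 for Pla2g4a, 1.82e-05 for Ptgs2, 3.87e-05 for Ptges and 0.000832 for Hpgd. The change in 1 tissue was then set against the mean change of the other 4, with the same adjusted p and a difference over 1 on the log2 scale. Foot pad differed in 4 genes, where 8.23% of all probe sets did: Ptgs1 by −4.29, Ptgs2 by −2.11, Pla2g4a by −1.45 and Ptger4 by 2.38 (adjusted p 4.81e-11, 2.18e-06, 3.57e-07 and 9.17e-08). The fall of Ptges in foot pad was not shown to differ from the change in the other tissues (−0.09 ± 0.11, adjusted p 0.589).

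The other tissues differed in fewer genes. Oesophagus was higher than the other 4 in its changes of Ptgs1 by 2.13 and of Ptgs2 by 1.17 (adjusted p 4.16e-07 and 0.00221), beside 1.35% of all probe sets. Foot pad is part of the mean it was set against. In a fit without the foot pad arrays the difference was 1.13 ± 0.10 for Ptgs1 (adjusted p 9.75e-05) and 0.69 ± 0.19 for Ptgs2, which no longer passed (adjusted p 0.0650). In oral mucosa the change of Ptger4 was 1.29 lower than elsewhere (−1.29 ± 0.17, adjusted p 5.64e-05), beside 4.66% of probe sets. Without foot pad, where Ptger4 rose, that difference was −0.74 ± 0.17 and under the fold threshold (adjusted p 0.0108). Trachea differed in Hpgd by 1.66 ± 0.24 (adjusted p 0.000392), beside 2.43%, and by 1.69 ± 0.27 without foot pad (adjusted p 0.000999). Vagina differed in 0 of the 6 genes, beside 1.66%, and its difference in Ptges was −0.76 ± 0.11, under the fold threshold (adjusted p 0.000478).

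Levels also differed between tissues of origin. After transplantation all 6 genes passed an F test among tissues with a largest pairwise fold over 2, as did 11.9% of probe sets. Without foot pad 3 of them did (Ptgs1, Ptgs2 and Hpgd). Before transplantation 4 genes passed (Ptgs1, Ptgs2, Ptges and Ptger4), where 9.05% of probe sets did. The widest span before was that of Ptgs2, 2.43 between trachea and oral mucosa. After transplantation the widest was that of Ptgs1, 5.06 between oesophagus and foot pad, and that of Ptgs2 was 3.34 between trachea and foot pad.

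The order of the 10 groups showed where each gene was high. Ptges was highest in oral mucosa before (10.79 ± 0.13, SD, n = 2), then vagina, trachea and oesophagus before, with no overlap between neighbours. Its lowest mean was in foot pad cells after (8.17 ± 0.06). Oral mucosa after and trachea after overlapped in Ptges at 9.53 ± 0.15 and 9.53 ± 0.13. Ptgs1 was highest in vagina before (10.36 ± 0.02) and lowest in foot pad after (4.87 ± 0.28), and the neighbours that overlapped were oesophagus after with foot pad before and vagina after with oral mucosa before. Pla2g4a gave the flattest order, in which neighbours among the 6 highest groups all overlapped, between 8.60 ± 0.0048 in vagina after and 8.39 ± 0.07 in foot pad before.

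The remaining 3 genes had their extremes in other tissues. Ptgs2 was highest in trachea after (9.50 ± 0.07) and trachea before (9.37 ± 0.09), which did not overlap, and lowest in foot pad after (6.17 ± 0.34). Neighbours that overlapped in Ptgs2 were foot pad before with vagina before, oesophagus before with oral mucosa before, and both stages of oral mucosa. Ptger4 was highest in foot pad after (8.21 ± 0.13) and lowest in foot pad before (6.14 ± 0.16). In Ptger4 the overlapping neighbours were oral mucosa before with oesophagus before, trachea after with oral mucosa after, oral mucosa after with vagina before, and vagina after with trachea before. Hpgd was highest in trachea after (5.04 ± 0.17), apart from the rest, and its other 9 groups overlapped the next one down except at the step between oesophagus after and trachea before.

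Markers of other cell types were read on the same arrays. Of 9 fibroblast markers, which rat cells of the dermis or lamina propria would bring past an EGFP sort, 8 fell in foot pad, 7 in vagina and 5 in trachea, and 0 rose. Of all probe sets 2.64% fell in foot pad, 1.68% in vagina and 0.883% in trachea. The mean of the 9 markers was 4.85 to 4.92 in foot pad after and 6.61 to 6.69 before, 4.93 to 4.99 in vagina after and 6.58 to 6.76 before, and 4.95 to 5.04 in trachea after and 6.43 to 6.57 before. The collagen gene Col1a1 was among those that fell in all 3 tissues (6.68 against 8.56 in foot pad, 6.84 against 9.23 in vagina, 6.81 against 9.26 in trachea, after against before). Dcn, the proteoglycan decorin of fibroblasts, was at 3.74 in foot pad, 3.99 in vagina and 4.10 in trachea after, below the 40% level of 4.77. Their part in the falls of Ptgs1, Ptgs2, Ptges and Pla2g4a in foot pad, and of Ptgs1 and Ptges in vagina, was not tested. In oral mucosa 0 of the 9 changed, with a list mean of 5.21 to 5.22 after and 4.98 to 5.13 before, and Ptgs1 and Ptges fell there. In trachea, where 5 markers fell, Ptgs1 and Ptges changed by −0.85 and −0.45 (limma, adjusted p 0.000227 and 0.00654), both under the fold threshold. The part of the markers was not tested in oral mucosa or trachea either.

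**Figure D3:**
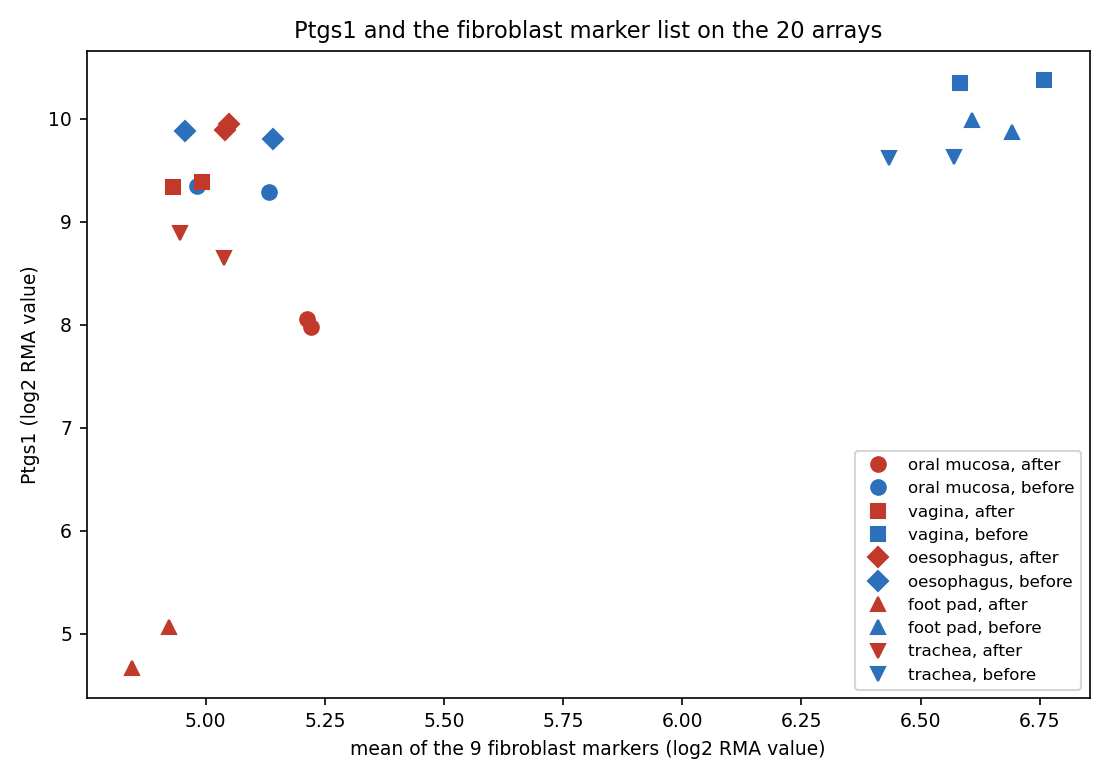
The log2 RMA value of Ptgs1 (y axis) against the mean log2 RMA value of 9 fibroblast markers (x axis) on each of the 20 arrays, with a symbol for each tissue and cells after transplantation in red and before in blue. The 6 arrays of foot pad, vagina and trachea before lie at 6.43 to 6.76 on the x axis, and the 14 others at 4.85 to 5.22, where Ptgs1 covers 4.67 to 9.95.

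Leukocytes and vessels are other known sources of these enzymes. The 8 macrophage markers had a mean of 3.95 to 4.20 after and 4.004 to 4.28 before over all arrays, the 7 measured mast cell markers 3.55 to 3.82 after and 3.41 to 3.87 before, and the 4 measured endothelial markers 4.01 to 4.16 after and 3.84 to 4.25 before. All these list means lie below the 40% level of 4.77. Of the markers in these 3 lists 1 fell in oral mucosa and 1 in vagina (Cd68 in both, a lysosomal protein that is not confined to macrophages), and 0 passed in the other tissues. Of the 3 measured melanocyte markers Mitf rose in foot pad (6.81 after, 4.94 before), while the list mean was 4.46 to 4.49 there after and 3.87 to 3.98 before, and 0 passed elsewhere. The part of Mitf in the foot pad results was not tested.

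Epithelial markers moved beside some results too. In oral mucosa all 4 measured squamous mucosa markers fell, in vagina 4 and in oesophagus 3, with Krt13 in vagina at 6.32 after and 10.68 before. In foot pad Krt13 rose (8.88 after, 6.40 before), and in trachea, where Hpgd rose, Sprr3 of the cornified envelope rose (6.36 after, 5.22 before). Of the 5 measured airway markers Krt8 and Krt18 fell in oral mucosa and vagina, and Krt18 fell in trachea (6.93 after, 8.79 before). In the basal list the adhesion gene Epcam rose in foot pad (10.76 after, 7.77 before), and 0 of the other measured genes of that list passed in any tissue. Of all probe sets 2.15% fell in oral mucosa, 1.68% in vagina, 0.558% in oesophagus and 0.883% in trachea, while 4.28% rose in foot pad and 0.496% in trachea. The part of these markers in the results was not tested.

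The sample titles carry Roman numerals, the way the study writes passages, and these are not the same after and before transplantation, except in vagina. Their part in the results was not tested.

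Other genes of the pathway were read in the same fit. A wider list of phospholipases, terminal synthases, prostanoid receptors, transporters and breakdown enzymes had 25 of its 29 genes measured, and 2 of them fell in vagina, where 1.68% of all probe sets fell, 0 rose there, and 0 passed in the other 4 tissues, where 0.558% to 2.64% of all probe sets fell and 0.496% to 4.28% rose. Slco2a1, the transporter that takes prostaglandins into the cell for breakdown, read 5.76 and 6.05 in vagina after and 7.27 and 7.32 before (change −1.39, adjusted p 3.82e-06). Hpgds, a prostaglandin D synthase of haematopoietic cells, read 3.16 and 3.28 in vagina after and 4.59 and 4.87 before (change −1.51, adjusted p 5.07e-06), low values by the 40% level except for 1 array. The part of the fibroblast markers that fell in vagina was not tested for these 2 genes either. The median change of the 25 genes was 0.14 in oral mucosa, 0.19 in vagina, 0.01 in oesophagus, −0.16 in foot pad and 0.11 in trachea. The other phospholipases A2 (7 measured) kept between −0.82 and 0.57 in all tissues, and the other receptors (7 measured) between −0.39 and 0.72. The terminal synthases Ptges2 and Ptges3, which make the same product as Ptges, stayed under the fold threshold in all 5 tissues. The change of Ptges2 was 0.17 in oral mucosa, 0.41 in vagina, 0.11 in oesophagus, −0.53 in foot pad and −0.10 in trachea, with an adjusted p under 0.05 in vagina (0.00746) and foot pad (0.000578). That of Ptges3 was 0.24 in oral mucosa, 0.03 in vagina, 0.26 in oesophagus, −0.25 in foot pad and −0.15 in trachea, with an adjusted p under 0.05 in oral mucosa (0.0417), oesophagus (0.0396) and foot pad (0.0236).

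Arachidonate can also go to lipoxygenases. All 10 genes of that list were measured, and 2 fell in oral mucosa, where 2.15% of all probe sets fell and 1.50% rose, 0 rose there, and 0 passed in the other tissues. Alox12, the platelet-type lipoxygenase that skin also uses, read 4.60 and 4.36 in oral mucosa after and 5.56 and 5.63 before (change −1.11, adjusted p 0.00125). Both of its arrays after lie below the 40% level of 4.77. Aloxe3, which acts in the lipid barrier of the epidermis, read 5.67 and 5.40 after and 6.63 and 6.65 before (change −1.10, adjusted p 1.13e-05). In foot pad Aloxe3 read 6.97 and 7.30 after and 6.40 and 6.56 before, higher by 0.66 and under the fold threshold (adjusted p 0.000581). The median change of the 10 genes was −0.44 in oral mucosa, 0.07 in vagina, −0.06 in oesophagus, −0.06 in foot pad and −0.01 in trachea.

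**Figure D4:**
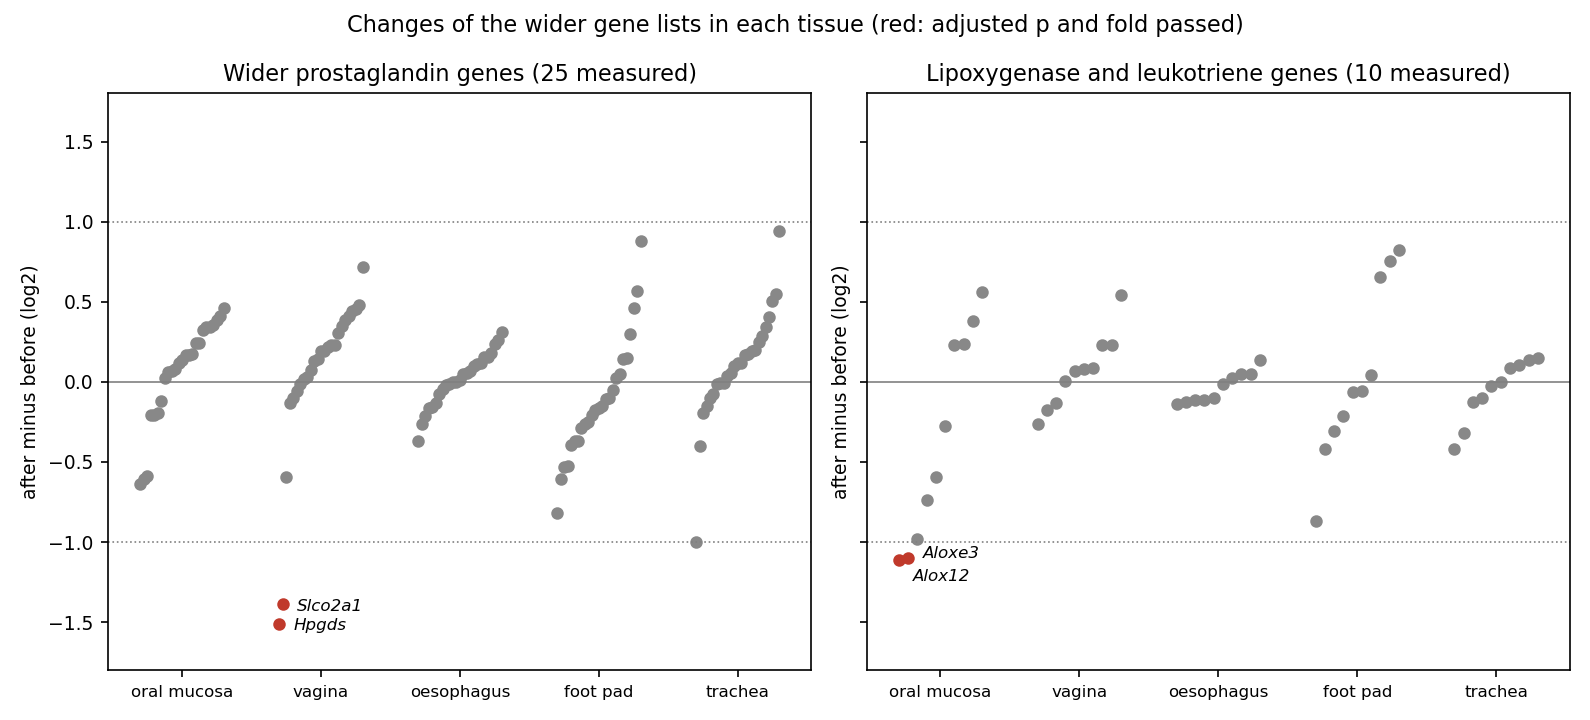
The change of each measured gene, after minus before transplantation in log2 units (y axis), for the 25 wider prostaglandin genes (left panel) and the 10 lipoxygenase and leukotriene genes (right panel), sorted within each tissue (x axis); red dots passed the adjusted p of 0.05 and the 2-fold threshold (dotted lines at −1 and 1). The 4 red dots are Hpgds and Slco2a1 in vagina and Alox12 and Aloxe3 in oral mucosa, all below −1.

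The 6 genes did not share a single pattern over the 10 groups. As a description, Pearson's r was taken over 10 group means, which share duplicate cultures and 1 normalization. It was 0.79 between Ptgs1 and Pla2g4a, 0.60 between Ptgs1 and Ptges, 0.53 between Ptgs1 and Ptgs2, and −0.76 between Ptger4 and Pla2g4a. In the same order, the changes of the 2 genes had the same sign in 2, 4, 4 and 1 of 5 tissues. The other pairs had r between −0.69 and 0.61. Foot pad after, the lowest group of Ptgs1, Pla2g4a, Ptgs2 and Ptges and the highest of Ptger4, weighs on these r. Among 3390 symbols whose group means span at least 1 on the log2 scale, those most like Ptgs1 were Psmd3 (r 0.99), Plpp5 (0.98) and Nrg1 (0.97), where foot pad after, far below the other 9 groups, weighs on r. Ptges was most like Phc1 (0.97), Dcbld2 (0.96) and Dnaaf9 (0.95), and Pla2g4a most like Tmem88 (0.96), Tuba4a (0.96) and Pbdc1 (0.95). Ptger4 was most like Ppp1r14c (0.95), Slc44a2 (0.94) and Bco1 (0.94), and Ptgs2 most like Vof16 (0.92), Plaur (0.90) and Krt12 (0.89). Hpgd had the least similar partners, Akr7a3 (0.86), Clec2e (0.85) and Klrc1 (0.80).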

How the data were processed

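The members and gene lists were chosen with earlier results of these data known. The deposited table holds log2 values that the authors made with RMA (background correction, quantile normalization and summary per probe set) in Affymetrix Expression Console. Versions, and which arrays were normalized together: not given in the sources used here. Platform annotation named the probe sets, of which 15310 had 1 symbol, 323 several and 13582 none here. A symbol was read by its probe set with the highest mean.

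Changes were tested with limma 3.58.1 (lmFit, eBayes) in R 4.3.3 on all 20 arrays in 10 groups (10 residual and 3.64 prior degrees of freedom), with Benjamini-Hochberg adjustment over all 29215 probe sets in each comparison. The script was tested on simulated data. All 6 members are named; list genes are named where they passed in at least 1 tissue, with Ptges2, Ptges3 and the marker genes added after their values were seen, and for each member the 3 symbols with the highest r. Alternatives were a trend and robust prior, centred arrays, low or unnamed probe sets left out, a tissue's 4 arrays alone, a replicate block, each replicate or foot pad left out. The fit without any foot pad array, and the tissue contrasts in it, were chosen after seeing the data.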

Additional observations from a re-analysis of the deposited data

Results flagged for a closer look

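Of 41 genes measured in the 3 lists (the 6 members, 25 further prostaglandin genes and 10 lipoxygenase and leukotriene genes), 22 changed unequally among the 5 tissues after transplantation by limma's F test over the differences of change, at an adjusted p under 0.05. The same test passed in 37.0% of all probe sets. For the members the adjusted p was 5.09e-10 for Ptgs1, 6.13e-07 for Ptger4, 3.60e-06 for Pla2g4a, 1.82e-05 for Ptgs2, 3.87e-05 for Ptges and 0.000832 for Hpgd. For the other list genes named here it was 2.10e-05 for Aloxe3, 5.37e-05 for Slco2a1, 7.98e-05 for Hpgds, 0.00070 for Ptges2, 0.00182 for Alox12 and 0.00476 for Ptges3.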

How the results depend on the processing

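Of 323 values of single genes under other settings, 310 kept their direction and side of the threshold, 6 fell under it, 2 passed it and 5 changed sign. The change after minus before could move only with centred arrays or with a single array left out (120 values). The other settings moved only its error and adjusted p, so its direction and fold could not change there. Hpgd in oral mucosa changed sign with centred arrays (−0.072) and with single arrays left out (lowest −0.11, highest 0.24), as did Pla2g4a in oesophagus with single arrays left out (lowest −0.071, highest 0.095); neither had passed the test. In trachea 0 members passed among the upper 60% of probe sets, since Hpgd lies below that filter. Without foot pad 3 members differed among tissues after transplantation, in a fit where the share of all probe sets was not counted. Set against the other tissues without foot pad, the change of Ptger4 in oral mucosa (−0.74) and of Ptgs2 in oesophagus (0.69) no longer passed. With single vagina arrays left out 1 to 2 members passed there. Centring the arrays moved the median change in oral mucosa to −0.09, against 0.05 as deposited, and the share of calls that were higher to 29.7%, against 41.1%. The deviations of same-numbered duplicates had r of −0.41 to 0.40 over 45 group pairs (median 0.00). Some group pairs thus shared deviations, and the check gave no common direction for equal numbers. It does not show whether samples are paired in another way. With a replicate block 2019 probe sets passed in foot pad, against 2022 without, and the counts of members were unchanged in all 5 tissues (2, 2, 0, 5 and 1). Taking the mean of a symbol's probe sets gave no other value, since each member has 1. The precision is limited by 2 arrays per group.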
